A study of Mus musculus with 4 samples.

Results

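The 10 genes described here are Hsf1, the transcription factor of the heat shock response, and 9 heat shock chaperones of the cytosol and mitochondria, namely Hspa8, Hspa1a, Hspa1b, Hsp90aa1, Hsp90ab1, Hspd1, Hspe1, Hspb1 and Dnajb1. They were selected by gene symbol and protein-coding biotype, from a list drawn up with earlier results of these data known, and each symbol matched 1 of the 55487 gene IDs in the expression table. The samples were primary neural stem cells of the mouse, precursors of neurons and glia that divide in culture, derived from the neocortex of floxed embryos. The control culture was Tut1f/f and received empty LNP, lipid nanoparticles without cargo. The Tut1 KO culture was Tut1f/f and received Cre-LNP, which carry mRNA for Cre recombinase, the enzyme that deletes DNA between loxP sites. The Trp53 KO culture was p53f/f with Cre-LNP, and the double KO culture was Tut1f/f;p53f/f with Cre-LNP. The control is titled wild type although its genotype is given as Tut1f/f. By label the control and Tut1 KO cultures share a genotype and differ in cargo, and the Trp53 KO and double KO cultures also differ from the control in floxed alleles. Sex-linked transcripts, given below, differed between the control and Tut1 KO cultures too. The text of the series names a treatment of 3 days without saying to which groups it applies.

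Heat shock proteins are chaperones, which bind unfolded proteins and help them to fold, to assemble or to be degraded. In unstressed cells HSF1 is held back by chaperones, and after heat or other damage to proteins it forms trimers, binds heat shock elements in promoters and raises transcription of inducible chaperones. The HSP70 group has a constitutive cytosolic member, Hspa8 (HSC70), and a stress-inducible pair, Hspa1a and Hspa1b. Dnajb1 (HSP40) delivers clients to HSP70 and stimulates its ATPase. The HSP90 group has the inducible Hsp90aa1 and the constitutive Hsp90ab1. Hspd1 (HSP60) and Hspe1 (HSP10) form the chamber and the lid of the mitochondrial chaperonin, and Hspb1 (HSP25) is a small heat shock protein that holds unfolded clients without ATP.

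Each group had 1 library, so no spread between cultures is known, no test was run, and no difference below could be set against replicate error. Values are transcripts per 1000000 transcripts (TPM), which are scaled by transcript length and can be compared between genes. TPM keeps no library depth, so the depth behind each value is unknown and no counting interval is given. TPM summed to between 999874 and 999892 per library. A difference is written as A versus B and is A minus B in log2(TPM + 1), a scale that understates changes of genes with low TPM. A gene entered a contrast with at least 10 TPM in at least 1 of both libraries and was called at a difference of at least 1 in either direction. In bulk RNA, fewer cells of a type and less RNA per cell cannot be told apart.

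The labels were checked first. Trp53, which encodes p53, had 119.9 TPM in control cells and 100.4 TPM in Tut1 KO cells, against 39.7 TPM in Trp53 KO and 41.9 TPM in double KO cells. Tut1, which encodes the uridylyltransferase that tails U6 snRNA, had 12.2 TPM in control cells and 29.8 TPM in cells labelled Tut1 KO, and so was not lower there, and it had 12.5 TPM in Trp53 KO and 13.7 TPM in double KO cells. The deletion removes exon 2 of Tut1, so a TPM of the whole gene need not fall, and exon coverage was not analysed here. Directions drawn from cells labelled Tut1 KO, and from double KO cells for their Tut1 part, therefore rest on labels. Xist and 4 Y-linked genes separated the libraries in another way, with Xist at 188 TPM in Tut1 KO and at 204 TPM in Trp53 KO cells and at most 0.0097 TPM in the others, and all 4 Y-linked genes listed at 0 where Xist was present. Of 9 neural stem cell markers 8 had at least 10 TPM in every library, with a summed level of 10543 to 12404 TPM. The lists for microglia, endothelial cells, blood and fibroblasts summed to at most 1.51 TPM in any library. The astrocyte list summed to 245 to 278 TPM and the oligodendrocyte list to 42.5 to 55.3 TPM over the libraries. The neuron list summed to 164 TPM in Tut1 KO cells and to 211 to 238 TPM in the other libraries. Most of this was Map2, at 141 TPM in Tut1 KO cells and 181 to 208 TPM in the others. The part of these lists in the results was not tested.

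Regulatory sequences are shown for the inducible pair and for the mitochondrial pair, whose genes start next to each other. Over all contrasts, the inducible pair held the largest differences among members that entered. Hspa1a lies at chr17:34969190-34972156 and Hspa1b at chr17:34956436-34959238, both on the minus strand of GRCm38 and separated by 9951 bases. The stretches below are the 150 bases upstream of each start site from RefSeq (GRCm38.p6), at chr17:34972157-34972306 for Hspa1a and chr17:34959239-34959388 for Hspa1b, and hold no annotated exon. Capitals mark heat shock element letters, searched as GAANNTTC or TTCNNGAA on both strands.
Hspa1a: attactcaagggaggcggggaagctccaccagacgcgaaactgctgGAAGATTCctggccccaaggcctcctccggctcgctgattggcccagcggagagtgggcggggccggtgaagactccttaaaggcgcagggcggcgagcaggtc
Hspa1b: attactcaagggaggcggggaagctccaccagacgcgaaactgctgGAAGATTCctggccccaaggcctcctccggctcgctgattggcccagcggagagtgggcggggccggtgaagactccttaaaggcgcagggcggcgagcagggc
The sequences differ at 1 of these 150 bases, and the full windows from 250 bases before to 50 bases after the start were identical at 296 of 300 bases (98.7%). Each carries 1 element, whose first base lies 104 bases before the start site. Each also has a CCAAT box, searched as CCAAT or ATTGG, 67 bases before it. Windows with at least 1 heat shock element made up 15.1% of 32851 RefSeq windows and windows with a CCAAT box 37.4%, so each motif is common by letters alone.

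The start of Hspd1 (chr1:55077835-55088243, minus strand) and that of Hspe1 (chr1:55088132-55091307, plus strand) face away from each other with 107 bases between the start sites of their main transcripts. The element between them is printed on the plus strand, from chr1:55088051-55088079.
Hspd1 and Hspe1: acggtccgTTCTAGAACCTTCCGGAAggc
The capitals hold 3 overlapping matches to the element letters, which make up 4 units of 3 bases in alternating orientation with 2 bases between neighbours. They begin 73 bases before the Hspe1 start and end 35 bases before the Hspd1 start. Such an element of at least 3 units was found in 0.603% of all windows. Exons of the 2 genes, alternative transcripts included, overlap by 112 bases on opposite strands.
Hspb1 (chr5:135887919-135889563, plus strand) is shown as a member with 2 elements and almost no transcript. Its 150 bases upstream lie at chr5:135887769-135887918.
Hspb1: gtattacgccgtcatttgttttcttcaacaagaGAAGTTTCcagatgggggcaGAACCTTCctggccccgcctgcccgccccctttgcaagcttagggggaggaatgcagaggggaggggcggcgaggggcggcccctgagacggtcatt
Windows were matched for 6 of the 10 genes, and the Dnajb1 windows held no match to the element letters. A match is a description of these letters only.

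The 10 genes together made up 0.584% of all TPM in control cells, 0.574% in Tut1 KO, 0.528% in Trp53 KO and 0.534% in double KO cells. The sum was lower in both libraries with deleted Trp53, and against the control most of that came from Hspa8. By TPM the order in control cells was Hsp90ab1, Hspa8, Hspe1, Hspd1, Hsp90aa1, Dnajb1, Hsf1, Hspa1b, Hspa1a and Hspb1. With 1 library per group, it cannot be said which neighbours in this order differ beyond culture spread. Across genes the levels ran from at least 1098 TPM for the constitutive cytosolic chaperones to at most 1.43 TPM for Hspb1, as the plot of levels by library shows.

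**Figure D1:**
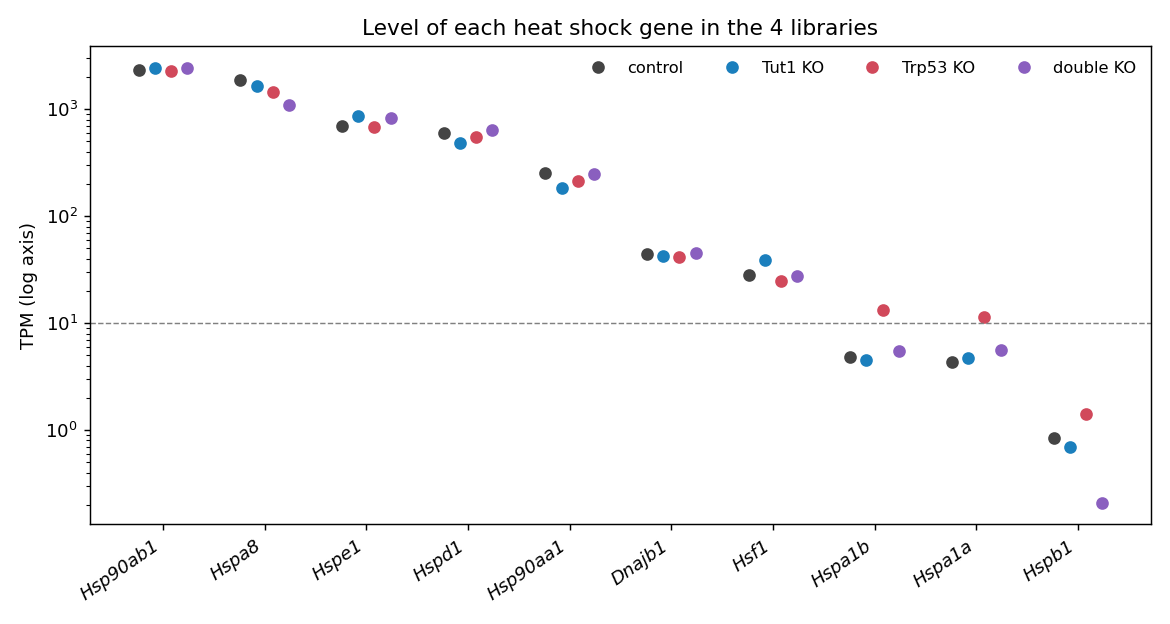
TPM on a log axis for each of the 10 genes, ordered by mean level, with 1 point per library and no error bars because each group had 1 library. The dashed line marks the minimum of 10 TPM. Hspa1a and Hspa1b cross it in Trp53 KO cells only, and Hspa8 is lowest in double KO cells.

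The stress-inducible HSP70 pair was the exception among the 10 genes. Hspa1a had 4.36 TPM in control cells, 4.77 TPM in Tut1 KO, 11.5 TPM in Trp53 KO and 5.57 TPM in double KO cells. Hspa1b had 4.86, 4.57, 13.1 and 5.44 TPM in the same order. Both transcripts were thus high in Trp53 KO cells alone, and low and alike in the others. Tut1 KO cells, which also had Xist and no Y-linked transcripts, had the low level. The part of sex-linked differences in these values was not tested. In Trp53 KO versus control the difference was 1.22 for Hspa1a (2.63-fold in TPM) and 1.27 for Hspa1b (2.71-fold). Both were called higher, and they were the only called members among the 9 that entered, in a contrast where 3.83% of 9055 genes were called in either direction. Both entered only through the library in which they were high, so their calls are a description and not a count in support.

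Double KO cells did not share the high level. In double KO versus Trp53 KO, Hspa1b differed by -1.13 and was called lower, and Hspa1a differed by -0.92 and was not called. In this contrast 3.21% of 8976 genes were called, and Hspa1b was the 1 member called of 9. Hspa1a and Hspa1b again entered only through Trp53 KO cells, so nothing is read from that count. With a pseudocount of 5, Hspa1b was at -0.80 and not called. In double KO versus control the differences were 0.29 for Hspa1a and 0.14 for Hspa1b, and in Tut1 KO versus control they were 0.10 and -0.07, all from libraries in which neither gene reached 10 TPM. Trp53 KO cells take part in both contrasts with large values, so these are not independent of each other. A pseudocount of 5 took Hspa1a to 0.81 and Hspa1b to 0.88 in Trp53 KO versus control, below the threshold.

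The 2 transcripts cannot be read as separate measurements. Of the 2918 stretches of 50 bases in the Hspa1a transcript, 1716 (58.8%) also occur in Hspa1b, and they make up 62.3% of the Hspa1b stretches. How reads from such stretches were divided is not given in the sources used here. Summed as 1 gene, the pair had 9.22 TPM in control cells, 9.33 TPM in Tut1 KO, 24.6 TPM in Trp53 KO and 11.01 TPM in double KO cells. The sum differed by 1.32 in Trp53 KO versus control (2.67-fold) and by -1.09 in double KO versus Trp53 KO. Gm20481, which overlaps Hspa1a on the opposite strand, was listed at 0 throughout. Hspa1l, the testis-linked HSP70 gene that begins 547 bases beyond Hspa1a, had 3.28, 2.54, 2.52 and 2.77 TPM in the library order above, and was not higher in Trp53 KO cells. Among the 3 nearest protein-coding genes on each side of the pair, none had a difference beyond 0.41 in Trp53 KO versus control.

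High values in 1 library were not particular to the pair. Of 9314 genes with at least 10 TPM in some library, 45 were at least 1 above all 3 other libraries in Trp53 KO cells, 45 in control cells, 31 in Tut1 KO and 20 in double KO cells. Hspa1b was among the 45 of Trp53 KO cells and Hspa1a was not, since it exceeded double KO cells by 0.92. By Euclidean distance of centred log2(TPM + 1) over the 4 libraries, the profiles nearest to that of Hspa1b among 8473 protein-coding genes were Gpatch4 (0.06), Camk2g (0.17), Selenbp1 (0.17), Tbl1xr1 (0.19) and Hspa1a (0.20). Selenbp1, a selenium-binding protein, had 35.6, 38.5, 86.2 and 38.3 TPM in the library order above. None of the first 4 genes is a chaperone by its textbook role.

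**Figure D2:**
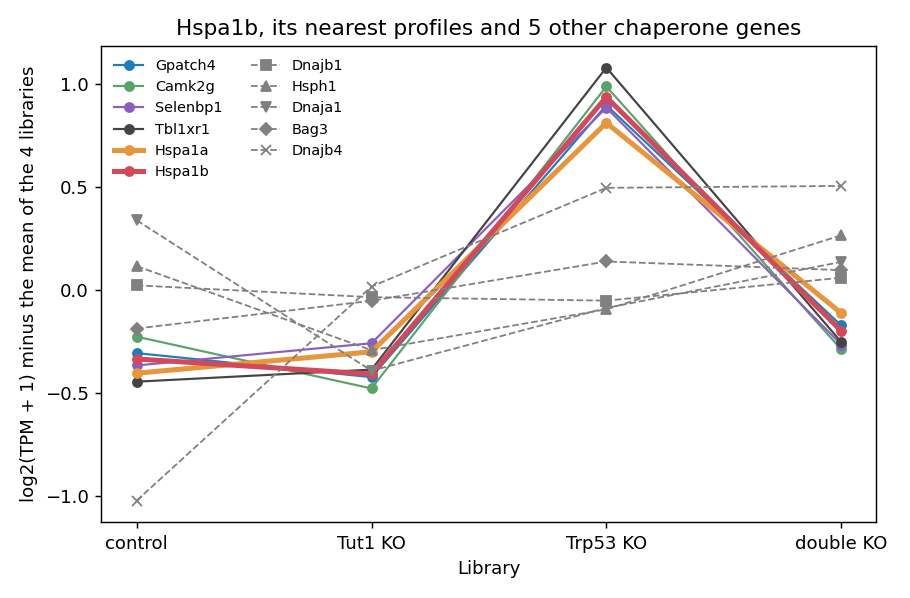
Log2(TPM + 1) minus its mean over the 4 libraries, for Hspa1b and the 5 genes nearest to it (solid lines) and for Dnajb1, Hsph1, Dnaja1, Bag3 and Dnajb4 (dashed lines), chosen with their values known, with 1 library per point. The solid lines peak in Trp53 KO cells, where Dnajb1, Hsph1 and Dnaja1 lie below their own means and Bag3 and Dnajb4 above theirs.

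Dnajb1, also known as a target of HSF1, did not have this shape. It (chr8:83608193-83612653, plus strand) had 44.2 TPM in control cells, 42.5 TPM in Tut1 KO, 42.0 TPM in Trp53 KO and 45.4 TPM in double KO cells, the second flattest profile after Hsp90ab1. Its difference lay between -0.07 and 0.11 in all 5 contrasts. Hsph1, the HSP110 nucleotide exchange factor of HSP70, had 79.2, 59.4, 68.3 and 87.9 TPM, and Bag3, a co-chaperone that links HSP70 to autophagy, had 19.5, 21.5, 24.7 and 23.9 TPM in the same order. In Trp53 KO versus control they differed by -0.21 and 0.33, and Bag3 was highest in Trp53 KO cells without being called. Hsph1 and Bag3 were picked with their values known. HSF1 activity was not measured, and its part in these values was not tested.

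Hsf1 itself (chr15:76477422-76501913, plus strand) had 27.9 TPM in control cells, 39.3 TPM in cells labelled Tut1 KO, 24.6 TPM in Trp53 KO and 27.4 TPM in double KO cells. It was highest in Tut1 KO cells and lowest where Hspa1a and Hspa1b were highest. Its difference was 0.48 in Tut1 KO versus control and 0.15 in double KO versus Trp53 KO, neither of which was called. In Tut1 KO versus control, 94.0% of the tested genes lay below it. Hsf2, a second heat shock factor, had 45.5, 30.0, 38.8 and 47.6 TPM. It was lowest in Tut1 KO cells, where Hsf1 was highest, with a difference of -0.58 from the control, and lay on the same side as Hsf1 in Trp53 KO versus control (-0.22).

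The constitutive HSP70 gene Hspa8 (chr9:40800984-40810087, plus strand) had 1865 TPM in control cells, 1663 TPM in Tut1 KO, 1444 TPM in Trp53 KO and 1098 TPM in double KO cells. Each deletion label came with a lower level, and double KO cells were lowest. The difference was -0.17 in Tut1 KO versus control, -0.37 in Trp53 KO versus control, -0.40 in double KO versus Trp53 KO, -0.60 in double KO versus Tut1 KO and -0.76 in double KO versus control. None reached the threshold of 1. Over other processing settings the value in Tut1 KO versus control ranged from -0.32 to -0.07, and the median over all genes there was -0.09. In double KO versus control, 2.85% of tested genes lay below Hspa8, which had 0.589 times its control level. It was the 1 member past a 1.5-fold difference in that contrast, where 7.76% of 9022 genes passed, and in double KO versus Tut1 KO, where 10.7% of 8950 genes did.

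Sequence shared with pseudogenes limits this value. Of the 50-base stretches of the Hspa8 transcript, 73.2% also occur in at least 1 of 11 other genes, 70.0% in the processed pseudogene Gm15459. Gm15459 was listed at 247 TPM in control cells, 225 TPM in Tut1 KO, 207 TPM in Trp53 KO and 234 TPM in double KO cells, a ratio of double KO to control closer to 1 than that of Hspa8. When Hspa8 was summed with the 5 genes that share at least 10% of its stretches, the levels were 2144, 1924, 1685 and 1362 TPM, and the difference was -0.65 in double KO versus control and -0.50 in double KO versus Tut1 KO, the latter no longer past 1.5-fold. The snoRNA genes Snord14c, Snord14d and Snord14e lie within Hspa8 and were listed below 1 TPM throughout.

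Neither HSP90 gene was called in any contrast. Hsp90ab1 (chr17:45567775-45573271, minus strand) had 2335, 2446, 2294 and 2447 TPM in the library order above, and was the flattest of the 10 genes, with a highest level 1.07 times the lowest. Its differences lay between -0.03 and 0.09, and all but that in double KO versus Trp53 KO (0.09) changed sign under at least 1 rescaling of the libraries. Hsp90aa1 (chr12:110690605-110702728, minus strand) had 253.6 TPM in control cells, 183 TPM in Tut1 KO, 212 TPM in Trp53 KO and 250.3 TPM in double KO cells. It was lowest in Tut1 KO cells, with a difference of -0.47 from the control, and double KO versus Tut1 KO gave 0.45, or 0.19 after the correction for GC content and length described below. The ratio of Hsp90ab1 to Hsp90aa1 in TPM was 9.21 in control cells, 13.3 in Tut1 KO, 10.8 in Trp53 KO and 9.78 in double KO cells. Of the Hsp90aa1 stretches 58.5% also occur elsewhere, mostly in the pseudogene Gm12346, against 4.49% for Hsp90ab1.

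Hspd1 and Hspe1, whose products work together, lay on opposite sides of their control levels in Tut1 KO cells only. Neither was called in any contrast. Hspd1 had 603 TPM in control cells, 483 TPM in Tut1 KO, 553 TPM in Trp53 KO and 639 TPM in double KO cells. Hspe1 had 704, 870.0, 680 and 821 TPM in the same order. Hspd1 was thus lowest in Tut1 KO cells and Hspe1 highest there. In Tut1 KO versus control Hspd1 differed by -0.32 and Hspe1 by 0.30, whereas both were higher in double KO versus Trp53 KO, by 0.21 and 0.27. The ratio of Hspe1 to Hspd1 in TPM was 1.17 in control cells, 1.80 in Tut1 KO, 1.23 in Trp53 KO and 1.28 in double KO cells. Of the 50-base stretches, 44.8% for Hspd1 and 36.1% for Hspe1 also occur in other genes.

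Base composition moved with these values, and its part in them was not tested beyond the correction below. Over protein-coding genes split into 5 classes of equal size by transcript GC content, the median of Tut1 KO versus control ran from -0.34 in the class with the lowest GC content to 0.09 in the highest, and by transcript length from 0.10 in the shortest to -0.28 in the longest class. The GC medians of double KO versus Tut1 KO ran from 0.33 in the lowest to -0.10 in the highest class, and those of Trp53 KO versus control from -0.11 to -2.9e-05. Hsp90aa1 had a GC content of 43.7%, Hspd1 46.8%, Hspe1 51.7% and Hsf1 57.8%, and Hspe1 had the shortest main transcript of the 10 at 774 bases. With a quadratic fit on GC content and length removed, Tut1 KO versus control was -0.21 for Hsp90aa1, -0.19 for Hspd1, 0.22 for Hspe1 and 0.42 for Hsf1. The difference of the log2 ratio of Hspe1 to Hspd1 went from 0.62 to 0.41 in Tut1 KO versus control and from 0.06 to 0.18 in double KO versus Trp53 KO. Hspa1a and Hspa1b, at 58.9% and 58.1% GC, were at 1.25 and 1.30 in Trp53 KO versus control after the same correction.

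**Figure D3:**
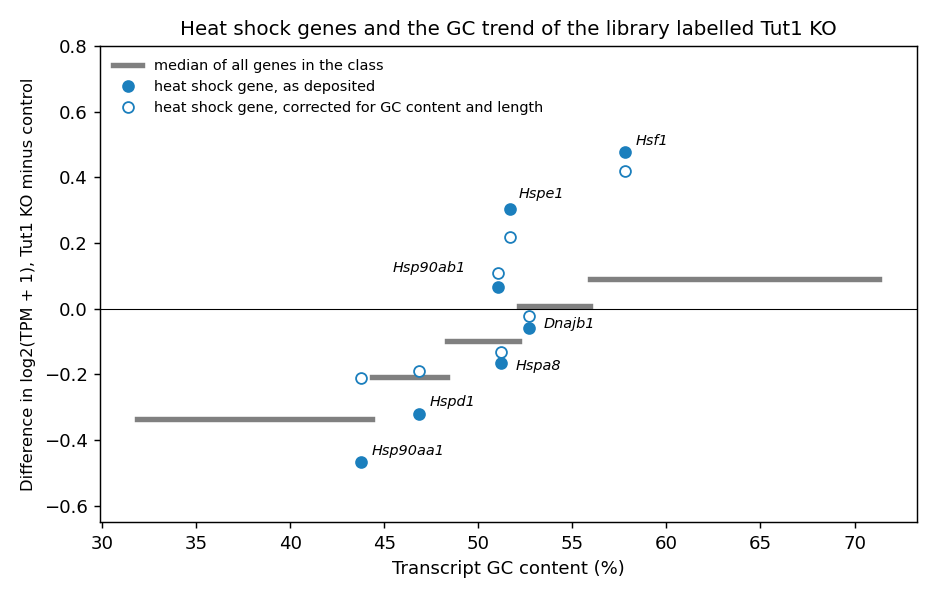
Difference of log2(TPM + 1) in Tut1 KO versus control against transcript GC content for the 7 genes that entered this contrast, as deposited (filled circles) and after removal of a fit on GC content and length (open circles), with the median over all protein-coding genes in each GC class as grey bars. The grey bars climb from -0.34 to 0.09, and the filled circles run from Hsp90aa1 at -0.47 to Hsf1 at 0.48.

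Hspb1 had 0.84 TPM in control cells, 0.70 TPM in Tut1 KO, 1.43 TPM in Trp53 KO and 0.21 TPM in double KO cells. It never reached 10 TPM and entered no contrast. It was highest in Trp53 KO cells, but at these levels no direction is drawn from it. Of 8 other small heat shock proteins 1 entered the contrasts. This was Hspb6, at 10.6, 9.06, 7.94 and 12.5 TPM.

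Over all contrasts, few of the 10 genes were called, and at the shares over all genes a count of 0 of 7 is near the background. In Tut1 KO versus control, 0 of the 7 that entered were called, where 4.10% of 9032 genes were called and 12.1% passed 1.5-fold, and 0 members passed 1.5-fold. In double KO versus Tut1 KO 0 of 7 were called (3.90% of all genes), and in double KO versus control 0 of 7 (3.31%). Past 1.5-fold there were 2 members, Hspa1a and Hspa1b, in Trp53 KO versus control (8.42% of all genes) and the same 2 in double KO versus Trp53 KO (7.89%). The median difference of the members that entered was -0.06 in Tut1 KO versus control, 0.11 in double KO versus Trp53 KO and -0.07 in Trp53 KO versus control, beside -0.09, 0.05 and -0.05 over all genes. In double KO versus Tut1 KO it was 0.00063 beside 0.09, and in double KO versus control 0.04 beside -0.0010. The contrasts share libraries and are given side by side.

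**Figure D4:**
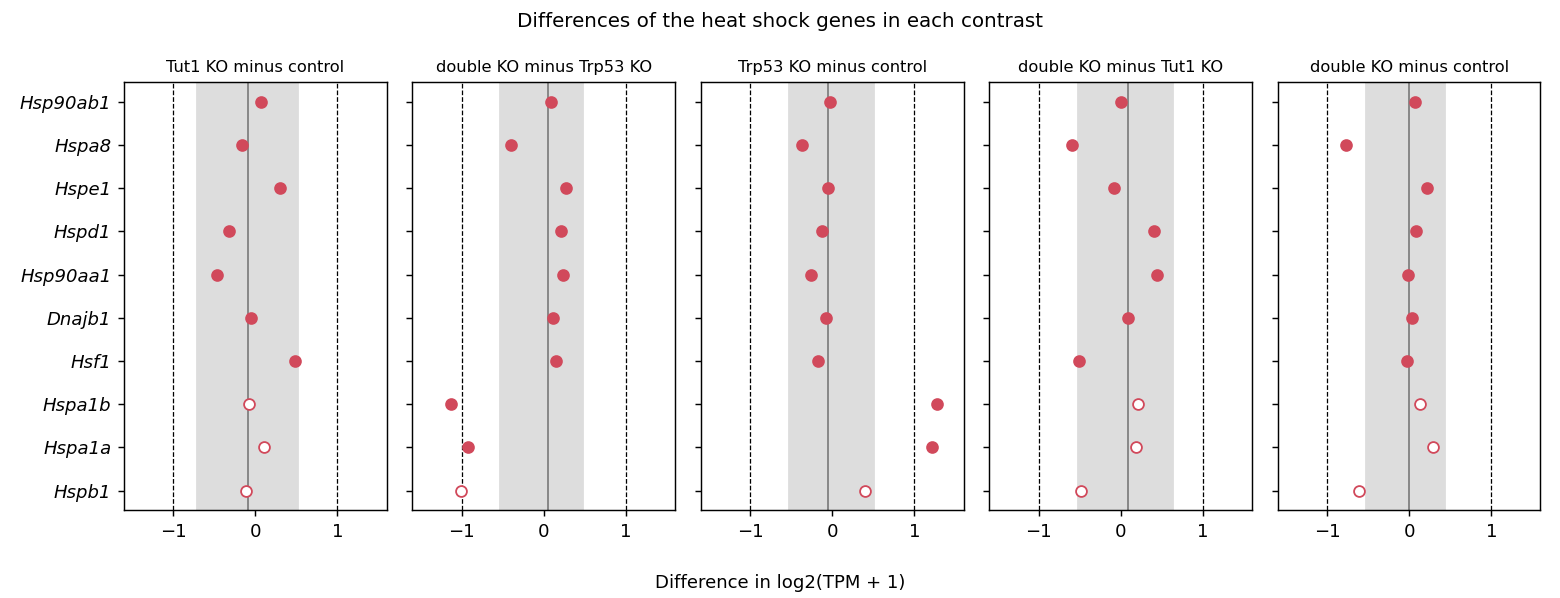
Difference of log2(TPM + 1) for each of the 10 genes in the 5 contrasts. Filled points entered the contrast, open points did not, the grey band spans the 5th to the 95th percentile of all genes, the grey line is their median and the dashed lines are the threshold of 1. Hspa1a and Hspa1b lie beyond the band in both contrasts with Trp53 KO cells, and Hspa8 lies left of it in double KO versus Tut1 KO and double KO versus control.

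The other genes of the chaperone network were read from lists written with earlier results of these data known. Of 27 IDs in the list of the HSP70 family and its co-chaperones, 21 entered each contrast. Dnajb4, a J-domain partner of HSP70, was the only gene called in any of the 7 other chaperone lists, and it was called higher in 3 contrasts, where 3.31% to 4.10% of all genes were called. With a pseudocount of 5 its difference in Tut1 KO versus control was 0.77, below the threshold. It had 6.94 TPM in control cells, 15.3 TPM in Tut1 KO, 21.7 TPM in Trp53 KO and 21.9 TPM in double KO cells. It was higher in all 3 libraries that received Cre-LNP, by 1.04, 1.52 and 1.53, and these contrasts share the control, which stayed below 10 TPM. Cargo and deletion cannot be told apart here. Dnaja1, the most abundant of the list and another J-domain protein, had 249.3, 150, 185 and 217 TPM, and was lowest in Tut1 KO cells with a difference of -0.73.

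In the HSP90 co-chaperone list, 15 of 15 entered every contrast and 0 were called. Over all genes 3.21% to 4.10% were called in the 5 contrasts, so a count of 0 in this list or in those that follow is near the background. Stip1, which bridges HSP70 and HSP90, was highest in it at 371, 361, 393 and 417 TPM. Of 14 genes of the TRiC chaperonin, which folds actin and tubulin, and prefoldin, 14 entered and 0 were called, with Cct2 highest at 537 to 619 TPM over the libraries. In the list of mitochondrial chaperones and proteases 15 or 16 of 16 entered and 0 were called. Its highest gene, Hspa9 (mortalin, the mitochondrial HSP70), had 335, 358, 353 and 443 TPM, and was highest in double KO cells as Hspd1 was. Of 10 heat shock factors and regulators 6 entered and 0 were called, with Ubb, a polyubiquitin gene, highest at 976 to 1080 TPM.

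**Figure D5:**
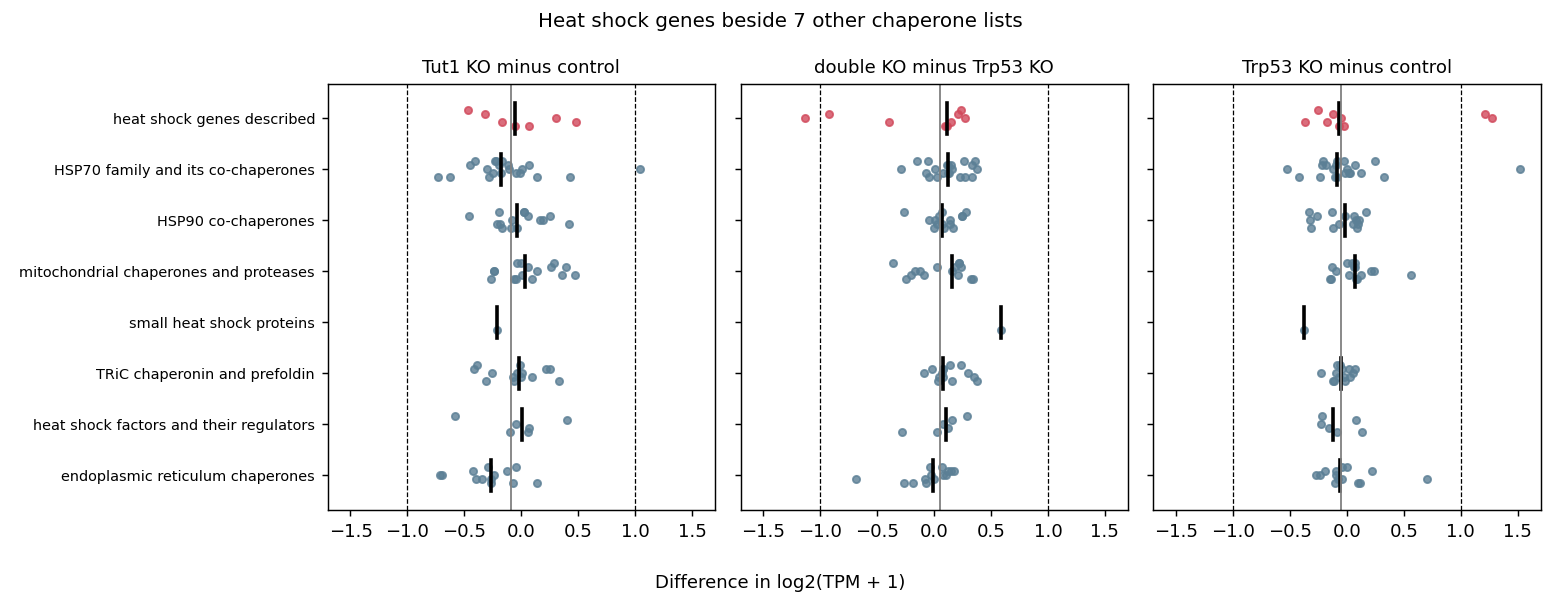
Difference of log2(TPM + 1) in Tut1 KO versus control, double KO versus Trp53 KO and Trp53 KO versus control for the heat shock genes described (red) and for genes of 7 other chaperone lists (blue), 1 point per gene that entered the contrast. Black bars are list medians, the grey line is the median of all genes and the dashed lines are the threshold of 1. Hspa1a, Hspa1b and, from the HSP70 list, Dnajb4 are the points past 1 to the right in Trp53 KO versus control.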

How the data were processed

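Bulk RNA from 4 neural stem cell cultures, 1 per group, was measured. Per the labels, libraries were prepared with a stranded Illumina mRNA kit, although the text of the series describes long reads. The deposited values are TPM per Ensembl gene, computed by the authors. The submitters' processing notes name Trimmomatic, HISAT2, StringTie and the build mm10 without versions. Strand settings and the division of shared reads are not given in the sources used here.

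Groups followed the labels. Differences were taken in log2(TPM + 1) for genes with at least 10 TPM in at least 1 of both libraries, and called at 1. No test was run, since each group had 1 library. Named genes were the 10 members, Tut1, Trp53, called genes and the most abundant gene of each list, and the 5 profiles nearest to the member with the widest range. Others were chosen after their values were seen. The members and lists were chosen with earlier results of these data known.

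Coordinates, GC content and lengths came from GENCODE M21 (GRCm38), which held 99.5% of the IDs, and promoter sequences from RefSeq (GRCm38.p6). Reference proteins were not used here. The code was tested on simulated libraries. Python 3.11.15, numpy 2.4.6, pandas 2.3.3 and matplotlib 3.10.9 were used.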

Additional observations from a re-analysis of the deposited data

How the results depend on the processing

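Every value rests on 1 library per group, so no replicate could be left out and deletion and culture spread cannot be told apart. Cargo also differed in the 3 contrasts with the control, and Xist and Y-linked transcripts in every contrast but double KO versus control. No paired analysis was possible because each group had 1 library. The count of members called in double KO versus Trp53 KO was 1, and became 2 with a pseudocount of 0.1, a 1.5-fold threshold, a minimum of 1 TPM or no minimum, the last 2 through Hspb1 at no more than 1.43 TPM. It became 0 with a pseudocount of 5. Summing members with genes that share at least 10% of their sequence, an alternative chosen after seeing the data, gave 2, where Hspa1a and Hspa1b held the same sum. In Trp53 KO versus control the count of 2 became 0 with a pseudocount of 5, and 1 with Hspa1a and Hspa1b summed. With a 1.5-fold threshold, the count of 0 became 1 (Hspa8) in double KO versus Tut1 KO and in double KO versus control. No called difference changed sign under the alternatives run. Of the members' uncalled differences, Dnajb1 in Tut1 KO versus control became 0.04 with medians set to 0 and 0.03 with quantile normalization, and Hsp90ab1 there became -0.08 with quantile normalization. Medians set to 0 gave 0.03 for Hsp90ab1 and 0.0016 for Hspe1 in Trp53 KO versus control. Hsp90ab1 in double KO versus Tut1 KO became -0.09 with medians set to 0, -0.02 without mitochondrial and ribosomal protein genes and -0.05 with the GC and length correction. In double KO versus control it became -0.03 with quantile normalization, and Hsf1 became 0.0052 with the correction. The members' median changed sign to 0.04 in Tut1 KO versus control with medians set to 0, to between -0.09 and -0.02 in double KO versus Tut1 KO under the same 3 settings as Hsp90ab1, and to -0.0084 in double KO versus control with quantile normalization. Dnajb4 in Tut1 KO versus control became 0.77 with a pseudocount of 5. Over the alternatives, Hspa1a ranged from 0.81 to 1.37 and Hspa1b from 0.88 to 1.42 in Trp53 KO versus control, and Hspa8 from -0.83 to -0.65 in double KO versus control.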

Other observations

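Chaperones of the endoplasmic reticulum and immediate early genes were read beside the heat shock genes, from lists written with earlier results of these data known. Of 13 endoplasmic reticulum chaperones that entered Tut1 KO versus control, 12 lay below 0 and 0 were called, in a contrast where 39.3% of all genes lay above 0 and 4.10% were called. The list had a median of -0.27 beside -0.09 over all genes, and -0.12 after the correction for GC content and length. Hspa5 (BiP), the HSP70 of that compartment, had 143 TPM in control cells, 87.9 TPM in Tut1 KO, 118 TPM in Trp53 KO and 127 TPM in double KO cells. Calr, the calcium-binding lectin chaperone with the highest mean level of the list, had 732, 698, 679 and 646 TPM. Hyou1, the nucleotide exchange factor of BiP, was highest in Trp53 KO cells as Hspa1a and Hspa1b were, at 35.5, 27.6, 58.5 and 36.0 TPM, with 0.71 in Trp53 KO versus control and -0.68 in double KO versus Trp53 KO. Neither value was called. Hspa5 and Hyou1 were picked after their values were seen.

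Of 13 immediate early genes, which respond within minutes to stimulation or handling, 9 entered each contrast and 0 were called in any. Jun was the most abundant at 147, 131, 123 and 134 TPM, and Fos had 21.1, 23.9, 19.6 and 18.1 TPM. In Tut1 KO versus control 5 of the 9 lay above 0, with a median of 0.11 beside -0.09 over all genes. In Trp53 KO versus control 7 of the 9 lay below 0, with a median of -0.10 beside -0.05 over all genes, of which 40.1% lay above 0.

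Cryab, a small heat shock protein, stayed under 10 TPM and had 3.395 TPM in control cells, 7.204 TPM in Tut1 KO, 0.88 TPM in Trp53 KO and 2.43 TPM in double KO cells. At these levels no direction is drawn from it. It was named after its values were seen and entered no contrast.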
